A study of Homo sapiens with 18 samples.

Results

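The 10 genes described here are clock genes and clock outputs: the PAR bZIP transcription factors TEF, DBP and HLF, the period genes PER1, PER2 and PER3, the nuclear receptors NR1D1 and NR1D2 (REV-ERB alpha and beta), the activator ARNTL (also called BMAL1) and the repressor BHLHE40 (DEC1). They were found by gene symbol, 10 of 58735 rows in each of the RBCK1 and ANKRD35 tables and 10 of 29928 rows in the MITD1 table. The genes were chosen by their differences between knockdown and control libraries in these same tables, so their differences are given as a description and without p-values.

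In the mammalian clock, ARNTL pairs with CLOCK or NPAS2 and activates genes through E-boxes, among them the period, cryptochrome, REV-ERB and DEC genes. PER and CRY proteins block that activation, the REV-ERB receptors repress ARNTL and compete with the ROR receptors for the same DNA element, and the DEC proteins BHLHE40 and BHLHE41 compete at E-boxes. TEF, DBP and HLF carry the rhythm to output genes by activating through D-boxes, where NFIL3 represses.

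The study used 786-O cells, a human renal carcinoma line grown in RPMI-1640 medium with serum, and asked what loss of each of 3 proteins does to its transcriptome. Knockdown cells carried shRBCK1, against an RNA hairpin named shcontrol; RBCK1 is an E3 ubiquitin ligase component. Other cells received siANKRD35 against sicontrol_for_siANKRD35, or siMITD1 against sicontrol_for_siMITD1; ANKRD35 is an ankyrin repeat protein and MITD1 acts in the last step of cell division. There were 3 RNA-seq libraries in each of the 6 groups, each knockdown has its own control libraries, and neither the time of harvest nor any synchronisation of the cells was given in the sources used here.

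The deposited values were FPKM, which scale the reads of a gene by its length and by a size set for each library, in 1 table for each knockdown. The tables were normalized separately, so tests stayed within a table and levels set across tables are a description. Reads recovered from these values numbered 16346478 to 18648246 per library in the RBCK1 table and 17502646 to 19034974 in the ANKRD35 table; for part of the genes of the MITD1 table, 12033351 to 13371447 reads could be recovered. The targeted genes were lower in their own knockdowns: RBCK1 was at 30.8 to 32.9 FPKM in shRBCK1 libraries and 462 to 492 FPKM in shcontrol libraries, ANKRD35 at 0 to 0.0332 FPKM in siANKRD35 and 687 to 753 FPKM in sicontrol_for_siANKRD35 libraries, and MITD1 at 2.43 to 3.03 FPKM in siMITD1 and 7.16 to 7.83 FPKM in sicontrol_for_siMITD1 libraries. RBCK1 itself was higher in shcontrol cells than in the other controls, at 480 ± 16 FPKM against 70.8 ± 2.4 FPKM in sicontrol_for_siANKRD35 and 65.5 ± 0.96 FPKM in sicontrol_for_siMITD1 cells (SD, n = 3 each), across separately normalized tables. The 6 libraries of the ANKRD35 table stood apart from the other 12. ANKRD35 itself was at most 0.0392 FPKM in every library of the other tables, controls included. CDH6, a cadherin of renal carcinoma, was listed at 0 in all 6 libraries of the ANKRD35 table and averaged 13.5 to 28.6 FPKM in the groups of the other tables. All 18 libraries are labelled 786-O; whether those of the ANKRD35 table hold the same cells as the others was not tested, and its comparison rests on that label. Of 7 renal line markers, 7 averaged at least 1 FPKM in each group of the RBCK1 and MITD1 tables and 6 in the ANKRD35 table. Of 6 blood markers, at most 1 did so in any group, and of 5 endothelial markers 1 did in each group. Of 6 fibroblast markers 2 did so in the RBCK1 and MITD1 tables and 0 in the ANKRD35 table, and of 4 markers of an embryonic kidney line 2 and 1 did. In the MITD1 table the summed level of endothelial markers was 5.01 to 6.38 FPKM in siMITD1 libraries and 9.47 to 10.1 FPKM in sicontrol_for_siMITD1 libraries; that of blood markers was 1.15 to 1.46 FPKM in siMITD1 and 3.81 to 4.76 FPKM in sicontrol_for_siMITD1 libraries. The embryonic kidney line markers summed to 48.2 to 49.8 FPKM in siMITD1 and 61.1 to 62.1 FPKM in sicontrol_for_siMITD1 libraries, and the part of these in the results was not tested. Blood markers in the RBCK1 table (1 of 6 at 1 FPKM, with CD3E and HBB among those listed at 0) summed to 2.68 to 3.70 FPKM in shRBCK1 libraries and 2.06 to 2.61 FPKM in shcontrol libraries, and their part was not tested either. Most of each of these sums came from 1 gene. LAPTM5 averaged 3.26 FPKM in shRBCK1 and 2.19 FPKM in shcontrol cells, and 1.31 FPKM in siMITD1 and 4.31 FPKM in sicontrol_for_siMITD1 cells. EGFL7, an endothelial marker, averaged 5.41 and 9.74 FPKM in those last 2 groups, and NEFL, of the embryonic kidney line, 47.1 and 59.2 FPKM. The endothelial markers KDR, VWF and CDH5, at most 0.149 FPKM on average there, were not lower in siMITD1 cells.

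The promoters of these genes carry some of the elements through which the clock works, and those of the genes whose levels are described next are shown here. All 10 genes had RefSeq promoter windows on GRCh38.p14 (15 windows of 300 bases around the annotated starts, ARNTL listed as BMAL1). Both strands were searched for the E-box CACGTG, the D-box TTANGTAA, the REV-ERB and ROR element ANTNGGTCA and the cAMP element TGACGTCA. The E-box was found in 5 windows of 4 genes (TEF, PER1, NR1D2 and BHLHE40), the D-box in 3 windows of 3 genes (PER2, PER3 and NR1D2), the ROR element in ARNTL and the cAMP element in HLF. Of 35116 such windows over all genes, 7.26% held the E-box, 2.18% the D-box, 1.97% the ROR element and 1.85% the cAMP element. No overlap between the 4 motifs occurred in the stretches below, where capitals mark the motif, lower case the neighbouring bases and each stretch reads 5′ to 3′ on the strand of its gene.
TEF, E-box, chr22:41367230-41367295, plus strand: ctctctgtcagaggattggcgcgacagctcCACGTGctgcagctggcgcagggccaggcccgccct
TEF, E-box, chr22:41381719-41381784, plus strand: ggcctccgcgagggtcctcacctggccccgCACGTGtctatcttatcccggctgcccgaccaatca
PER3, D-box, chr1:7784084-7784151, plus strand: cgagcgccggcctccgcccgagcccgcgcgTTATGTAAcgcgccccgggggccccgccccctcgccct
PER2, D-box, chr2:238288595-238288624, minus strand: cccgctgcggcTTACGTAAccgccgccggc
PER1, E-box, chr17:8152542-8152607, minus strand: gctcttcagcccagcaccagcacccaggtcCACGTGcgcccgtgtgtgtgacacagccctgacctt
NR1D2, D-box and a pair of E-boxes, chr3:23945897-23946051, plus strand: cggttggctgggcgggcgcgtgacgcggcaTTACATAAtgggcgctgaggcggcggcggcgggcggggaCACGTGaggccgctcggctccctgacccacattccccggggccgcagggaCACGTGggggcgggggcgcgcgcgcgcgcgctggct
BHLHE40, E-box, chr3:4979187-4979209, plus strand: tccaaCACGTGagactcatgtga
ARNTL, ROR element, chr11:13277808-13277836, plus strand: gaaggcagaaAGTAGGTCAgggacggagg
The TEF windows belong to its 2 annotated starts; the E-box of the first lies outside the GENCODE 29 gene model and that of the second in an intron. The D-box of PER3 lies before the gene model, and that of PER2 lies across the annotated start, in an exon. The elements of NR1D2 and PER1 lie in introns of the gene models, and those of BHLHE40 and ARNTL in exons. The windows of NR1D1 and DBP held none of the 4 motifs. A match is a string of letters in a window and not a measured binding site.

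The PAR bZIP factor TEF and the REV-ERB receptor NR1D1 differed in opposite directions after RBCK1 knockdown, and these were the widest differences of the 10 genes. TEF (ENSG00000167074, chr22:41367333-41399326 on GRCh38, plus strand) had 8.01, 7.95 and 8.30 FPKM in shRBCK1 libraries, against 3.26, 3.44 and 3.13 FPKM in shcontrol libraries. Every shRBCK1 library lay above every shcontrol library. The mean was 8.09 ± 0.19 FPKM in shRBCK1 cells and 3.28 ± 0.15 FPKM in shcontrol cells (SD, n = 3 each), a ratio of 2.47 and a difference of 1.09 ± 0.05 (SE) in mean log2(FPKM + 1). Since these are bulk libraries, a different share of cells with a transcript and a different amount of it per cell cannot be told apart, for this and the other genes.

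TEF was the only PAR bZIP factor of the 3 that passed the expression filter in any table (1 FPKM in at least 3 of its 6 libraries), and outside the RBCK1 table its knockdown and control libraries overlapped. It had 0.925, 0.923 and 1.03 FPKM in siANKRD35 libraries and 1.04, 0.998 and 1.27 FPKM in sicontrol_for_siANKRD35 libraries. In the MITD1 table it had 5.38, 6.26 and 6.32 FPKM in siMITD1 libraries and 6.15, 5.59 and 6.55 FPKM in sicontrol_for_siMITD1 libraries. The differences were -0.10 ± 0.09 and -0.02 ± 0.07 (SE) on the log2(FPKM + 1) scale. Set side by side over the separately normalized tables, the control level of TEF was lowest in the ANKRD35 table.

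HLF (chr17:55265012-55325065, plus strand) and DBP (chr19:48630030-48637438, minus strand), the other PAR bZIP factors, were near the limit of detection in every group. HLF had 34, 32 and 42 reads in shRBCK1 libraries and 27, 27 and 23 reads in shcontrol libraries, or 0.303 ± 0.044 and 0.234 ± 0.025 FPKM. In siMITD1 libraries it had 4, 8 and 14 reads, against 19, 19 and 16 reads in sicontrol_for_siMITD1 libraries. Neither pair of groups overlapped, with the shRBCK1 libraries above and the siMITD1 libraries below their controls. HLF had 2, 0 and 0 reads in siANKRD35 libraries and 3, 2 and 6 reads in sicontrol_for_siANKRD35 libraries. DBP had between 1 and 22 reads in each of the 18 libraries. In the MITD1 table its groups did not overlap, with 2, 3 and 3 reads in siMITD1 libraries and 4, 5 and 9 reads in sicontrol_for_siMITD1 libraries, and in the other tables they overlapped. Neither gene passed the expression filter in any table. DBP overlaps SPHK2 on the opposite strand, and the counting strand was not given in the sources used here, so its few reads are uncertain.

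**Figure D1:**
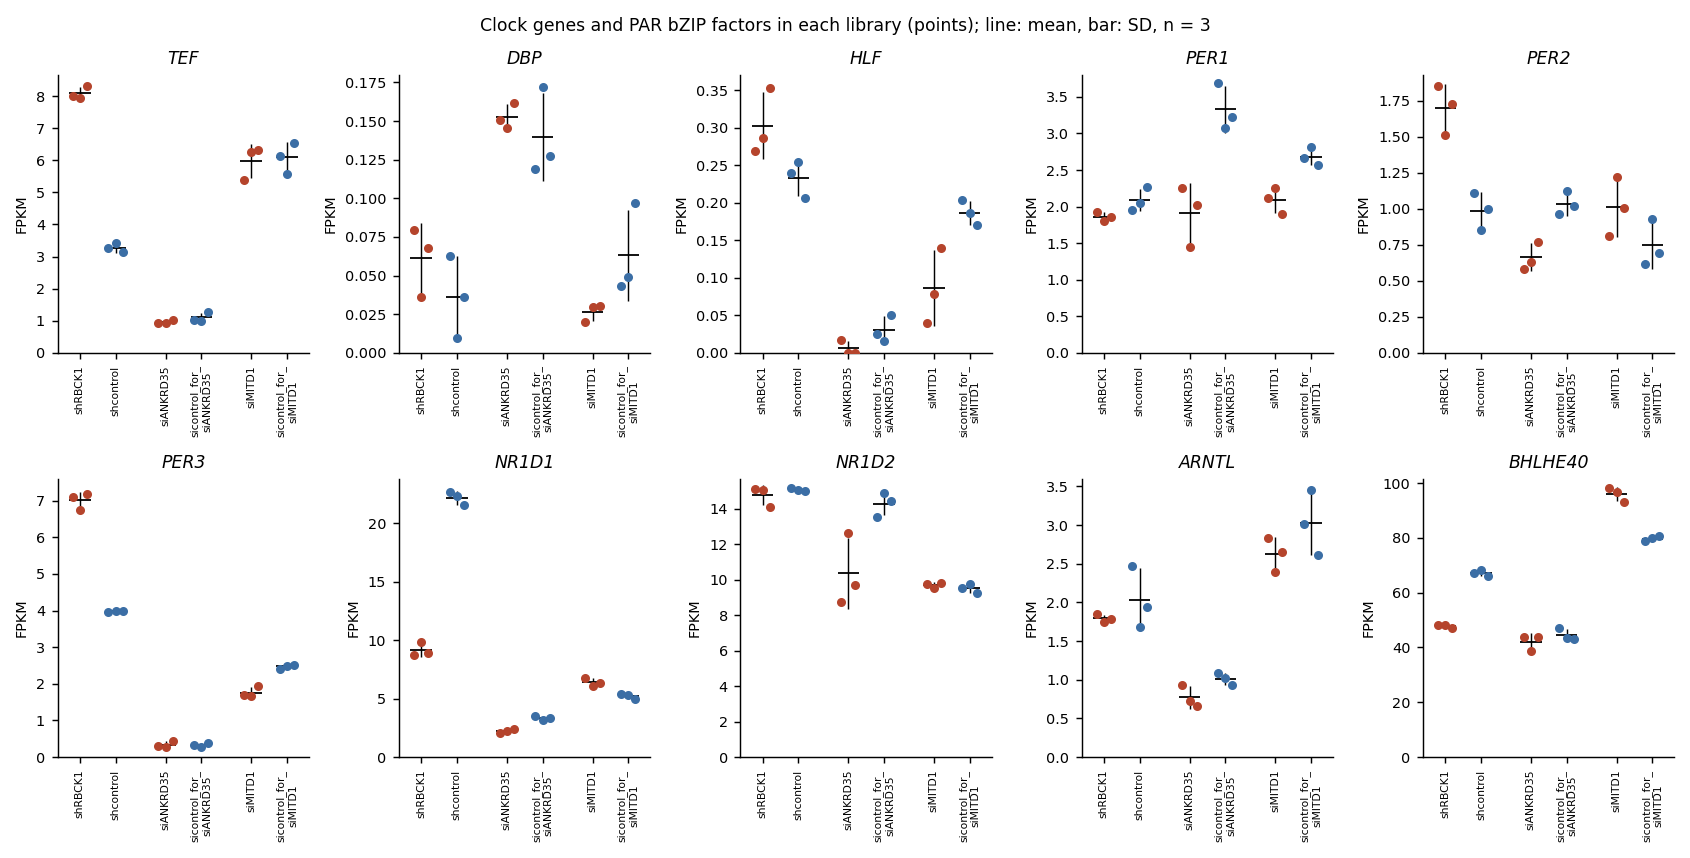
FPKM (y axes, from 0, each panel with its own scale) of the 10 genes in each library (points), with the group mean (horizontal line) and SD (vertical bar, n = 3). Each knockdown group, in red, stands left of its own control group, in blue; TEF is at 7.95 to 8.30 FPKM in shRBCK1 libraries and 3.13 to 3.44 FPKM in shcontrol libraries, while NR1D1 is at 8.71 to 9.82 and 21.5 to 22.7 FPKM there.

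Among the period genes, PER2 and PER3 were higher and PER1 hardly differed in shRBCK1 cells. PER3 (ENSG00000049246, chr1:7784320-7845177, plus strand) had 7.10, 6.76 and 7.19 FPKM in shRBCK1 libraries, against 3.95, 3.99 and 3.99 FPKM in shcontrol libraries. The groups did not overlap, and the difference was 0.69 ± 0.04 (SE) on the log2(FPKM + 1) scale, a ratio of means of 1.76. PER2 (ENSG00000132326, chr2:238244038-238290102, minus strand), like PER1 an inhibitor of the CLOCK and ARNTL pair, had 1.85, 1.51 and 1.73 FPKM in shRBCK1 libraries and 1.11, 0.852 and 0.997 FPKM in shcontrol libraries, a ratio of 1.72 with no overlap. PER1 (ENSG00000179094, chr17:8140472-8156506, minus strand) had 1.93, 1.81 and 1.85 FPKM in shRBCK1 libraries and 1.96, 2.05 and 2.26 FPKM in shcontrol libraries. Its groups did not overlap either, but its difference of -0.11 ± 0.07 (SE) was small. PER3 and PER2 are the genes of this trio with a D-box in the stretches above, and PER1 is the one with an E-box. NR1D2 also has a D-box there, and its difference in the RBCK1 table was -0.03 ± 0.04 (SE). Whether the motifs bear on these levels was not tested.

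The trio behaved otherwise in the remaining knockdowns. PER1 had 2.25, 1.45 and 2.02 FPKM in siANKRD35 libraries, against 3.69, 3.07 and 3.23 FPKM in sicontrol_for_siANKRD35 libraries, a difference of -0.58 ± 0.13 (SE) with no overlap. PER2 was also lower there in all libraries, at 0.583, 0.633 and 0.770 FPKM in siANKRD35 libraries and 0.962, 1.12 and 1.02 FPKM in sicontrol_for_siANKRD35 libraries, levels under the expression filter. PER3 was at 0.265 to 0.448 FPKM in siANKRD35 libraries and 0.278 to 0.377 FPKM in their controls, so the groups overlapped at 36 to 65 reads per library. After MITD1 knockdown PER3 was lower, opposite in sign to shRBCK1. It had 1.68, 1.66 and 1.94 FPKM in siMITD1 libraries and 2.41, 2.49 and 2.52 FPKM in sicontrol_for_siMITD1 libraries, a difference of -0.33 ± 0.06 (SE). PER1 had 2.12, 2.25 and 1.89 FPKM in siMITD1 libraries and 2.67, 2.81 and 2.57 FPKM in sicontrol_for_siMITD1 libraries, a difference of -0.26 ± 0.07 (SE). PER2 was at 0.809 to 1.22 FPKM in siMITD1 libraries and 0.615 to 0.929 FPKM in their controls, under the expression filter and with overlap.

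Within the summed FPKM of the trio, the period transcript with the highest group mean was the same in the knockdown and control group of each table. In the RBCK1 table this was PER3, which made up 66.4 ± 1.0% of the sum in shRBCK1 cells and 56.4 ± 1.4% in shcontrol cells, of totals of 10.6 ± 0.43 and 7.05 ± 0.19 FPKM (SD, n = 3 each). In the ANKRD35 table PER3 was a minor share, 11.6 ± 2.1% in siANKRD35 cells and 6.95 ± 1.1% in sicontrol_for_siANKRD35 cells, and PER1 was the most abundant. In the MITD1 table PER1 also had the highest group mean. The share of PER3 was 36.3 ± 3.8% in siMITD1 cells and 41.9 ± 1.8% in sicontrol_for_siMITD1 cells. The libraries of these groups overlapped in that share. The summed level was lower in both of these knockdowns, at 2.91 ± 0.49 FPKM in siANKRD35 and 4.69 ± 0.26 FPKM in sicontrol_for_siANKRD35 cells, and at 4.86 ± 0.26 FPKM in siMITD1 and 5.90 ± 0.28 FPKM in sicontrol_for_siMITD1 cells.

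**Figure D2:**
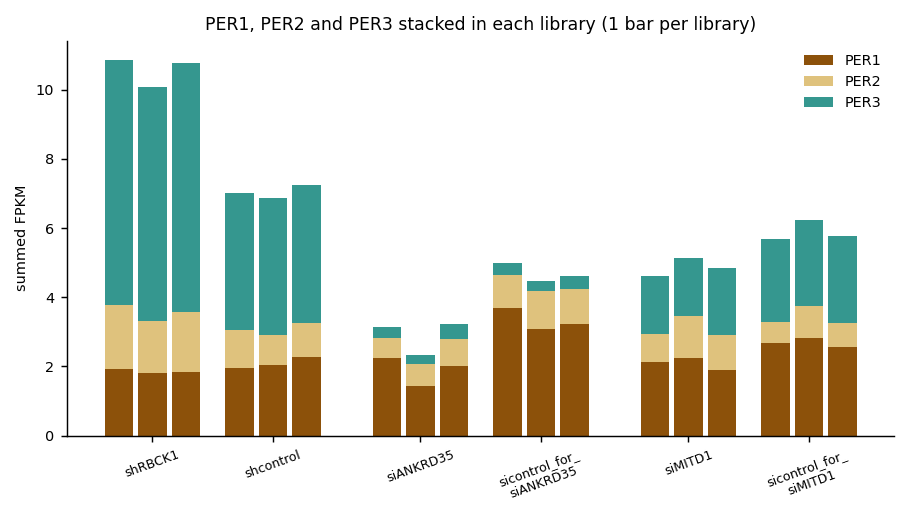
Summed FPKM (y axis, from 0) of PER1, PER2 and PER3, stacked, with 1 bar for each of the 18 libraries and each knockdown group left of its control. The sums average 10.6 FPKM in shRBCK1 and 7.05 FPKM in shcontrol cells, with PER3 the widest band in both, whereas PER3 is the thinnest band in the 6 libraries of the ANKRD35 table.

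PER3 shares its locus with the antisense gene Z98884.1, which averaged 1.25 ± 0.04 FPKM in shRBCK1 cells and 0.239 ± 0.11 FPKM in shcontrol cells (SD, n = 3 each). It passed the expression filter only through the 3 shRBCK1 libraries, so it is described without a p-value. These levels rest on 56 reads over the shRBCK1 libraries and 10 reads over the shcontrol libraries, against 3077 and 1610 reads for PER3. The kit marked strand but the strand used in counting was not given in the sources used here, so reads of a gene and its antisense partner cannot be told apart.

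NR1D1 (ENSG00000126368, chr17:40092787-40100725, minus strand), which represses ARNTL, was lower after RBCK1 and ANKRD35 knockdown and higher after MITD1 knockdown, with no overlap between groups in any table. It had 8.71, 9.82 and 8.92 FPKM in shRBCK1 libraries, against 22.7, 22.4 and 21.5 FPKM in shcontrol libraries. It had 2.08, 2.22 and 2.43 FPKM in siANKRD35 libraries, against 3.49, 3.21 and 3.31 FPKM in sicontrol_for_siANKRD35 libraries. In both tables each knockdown library lay below each control library, with differences of -1.19 ± 0.05 and -0.42 ± 0.08 (SE) on the log2(FPKM + 1) scale. After MITD1 knockdown NR1D1 lay above its controls, with 6.79, 6.12 and 6.35 FPKM in siMITD1 libraries and 5.37, 5.33 and 4.95 FPKM in sicontrol_for_siMITD1 libraries. That difference was 0.26 ± 0.05 (SE), a ratio of 1.23. The reads behind these values numbered 99 to 1071 per library.

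NR1D2 (ENSG00000174738, chr3:23945260-23980618, plus strand), the paralog of NR1D1 with a similar role, did not follow it in the RBCK1 and MITD1 tables. NR1D2 had 15.1, 15.0 and 14.1 FPKM in shRBCK1 libraries and 15.2, 15.0 and 15.0 FPKM in shcontrol libraries. It had 9.77, 9.54 and 9.82 FPKM in siMITD1 libraries and 9.55, 9.73 and 9.24 FPKM in sicontrol_for_siMITD1 libraries. Knockdown and control libraries overlapped in both, with differences of -0.03 ± 0.04 and 0.03 ± 0.04 (SE). After ANKRD35 knockdown NR1D2 had 8.74, 12.6 and 9.71 FPKM in siANKRD35 libraries and 13.5, 14.9 and 14.4 FPKM in sicontrol_for_siANKRD35 libraries, a difference of -0.44 ± 0.13 (SE). The groups did not overlap there, but the siANKRD35 libraries differed widely among themselves. The order of the pair differed between the groups of the RBCK1 table: NR1D2 was above NR1D1 in shRBCK1 cells, 14.7 ± 0.58 and 9.15 ± 0.59 FPKM, and below it in shcontrol cells, 15.1 ± 0.09 and 22.2 ± 0.58 FPKM. In all groups of the other tables NR1D2 was the higher of the pair.

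THRA, a thyroid hormone receptor gene that overlaps NR1D1 on the opposite strand, is not one of the 10 genes and moved the other way. It rose in the RBCK1 table, at 4.14 ± 0.18 FPKM in shRBCK1 cells and 3.05 ± 0.08 FPKM in shcontrol cells, a log2 difference of 0.35 ± 0.05 (SE; adjusted p = 0.00126, limma, Benjamini-Hochberg). It did not pass the test in the ANKRD35 and MITD1 tables (adjusted p = 0.676 and 0.227, limma). THRA was named after its values were seen, so its p-values are a description. The counting strand was not given, so reads of THRA and NR1D1 cannot be told apart where the genes overlap.

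ARNTL (ENSG00000133794, chr11:13276652-13387266, plus strand), the activator that the REV-ERB receptors repress, overlapped between knockdown and control in each table. It had 1.85, 1.75 and 1.78 FPKM in shRBCK1 libraries and 2.48, 1.68 and 1.94 FPKM in shcontrol libraries. It had 2.83, 2.39 and 2.65 FPKM in siMITD1 libraries and 3.01, 3.46 and 2.61 FPKM in sicontrol_for_siMITD1 libraries. The differences were -0.11 ± 0.10 and -0.15 ± 0.09 (SE), no larger than the spread of the control libraries. ARNTL in the ANKRD35 table was under the expression filter, at 0.655 to 0.933 FPKM in siANKRD35 libraries and 0.933 to 1.08 FPKM in sicontrol_for_siANKRD35 libraries.

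BHLHE40 (ENSG00000134107, chr3:4979116-4985323, plus strand), a repressor at E-boxes that is also induced by hypoxia, was the most abundant of the 10 genes in all 6 groups. It had 48.3, 48.3 and 47.2 FPKM in shRBCK1 libraries, against 67.2, 68.4 and 66.1 FPKM in shcontrol libraries, a ratio of 0.713. It had 98.1, 96.7 and 93.0 FPKM in siMITD1 libraries, against 78.8, 79.8 and 80.5 FPKM in sicontrol_for_siMITD1 libraries, a ratio of 1.20. Neither pair of groups overlapped, and the log2 differences of -0.48 ± 0.03 and 0.26 ± 0.03 (SE) had opposite signs, as those of NR1D1 did in the same tables. Its groups overlapped in the ANKRD35 table, at 43.9, 38.6 and 43.8 FPKM in siANKRD35 libraries and 47.0, 43.4 and 43.1 FPKM in sicontrol_for_siANKRD35 libraries.

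**Figure D3:**
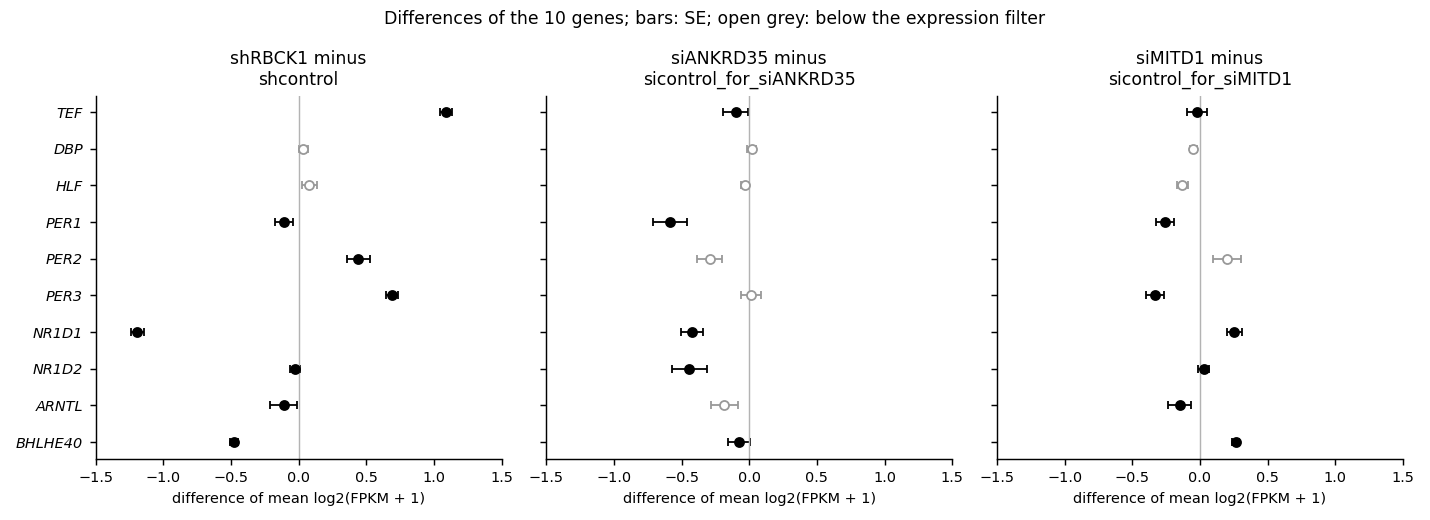
Difference of mean log2(FPKM + 1), knockdown minus control (x axes), of the 10 genes in the 3 comparisons, with SE bars; filled points passed the expression filter and open grey points did not. In the left panel TEF lies at 1.09 and NR1D1 at -1.19, and in the right panel NR1D1 and BHLHE40 both lie at 0.26 and PER3 at -0.33.

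The fit over all genes gives the background for these counts. A gene is called here when its limma adjusted p was under 0.05 over all tested genes of its table. Of the 10 genes, 8 passed the expression filter in the RBCK1 table and 5 were called, 3 higher (TEF, PER2 and PER3) and 2 lower (NR1D1 and BHLHE40), beside 49.1% of 12227 tested genes called, 24.1% higher and 24.9% lower. PER2 reached 1 FPKM in 4 of the 6 libraries, among them all 3 shRBCK1 libraries. It thus passed the filter through the group where it was higher, and its call is not a test. The groups of 6 of the 8 did not overlap, as for 59% of all tested genes. For the ANKRD35 table, 5 genes passed and 3 were called, all lower (NR1D1, NR1D2 and PER1), beside 36.3% of 11890 tested genes called, 19.4% higher and 16.9% lower; 3 of the 5 did not overlap, beside 52.2% of all. For the MITD1 table, 7 passed and 4 were called, 2 higher (NR1D1 and BHLHE40) and 2 lower (PER1 and PER3), beside 65.6% of 10415 tested genes called, 30% higher and 35.6% lower; 4 of the 7 did not overlap, beside 72.9% of all. Because the genes were chosen on these contrasts, nothing is read from the counts, nor from NR1D1 being called in all 3 tables. With voom on recovered reads 61.1% of calls in the RBCK1 table were higher, against 49.2% in the FPKM fit, and 39.1% against 53.5% in the ANKRD35 table. Whether the libraries of a group stem from separate cultures is not stated in the labels, so a p-value measures the spread of these libraries alone, which may be technical.

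In the ANKRD35 table the calls of PER1 and NR1D2 were not kept in every fit. PER1 was no longer called without sicontrol_for_siANKRD35 replicate 1, and NR1D2 was no longer called in 6 of 12 alternative fits, which left out siANKRD35 replicate 1 or 3, or any 1 control library, or had no expression filter. Over those 12 fits the difference of PER1 stayed between -0.91 and -0.46 and that of NR1D2 between -0.58 and -0.34. Fold changes there also followed gene length, with a Spearman rho of -0.41 across 11890 genes between length and difference, against 0.03 in the RBCK1 and 0.09 in the MITD1 table. With each library corrected for length, the differences were -0.62 for NR1D1, -0.41 for NR1D2 and -0.49 for PER1. Marker sums also differed between its groups, and 1 gene made up most of the endothelial and of the embryonic kidney line sums. EGFL7 averaged 41.4 FPKM in siANKRD35 and 24.0 FPKM in sicontrol_for_siANKRD35 cells, and NEFL 2.46 and 4.73 FPKM. Of the endothelial markers 1 of 5 averaged at least 1 FPKM, KDR was listed at 0 in both groups, and the summed level was 27.3 to 51.5 FPKM in siANKRD35 libraries and 20.3 to 27.3 FPKM in sicontrol_for_siANKRD35 libraries, ranges that touch. The summed fibroblast markers (0 of 6 at 1 FPKM, LUM and PDPN listed at 0) were at 0.0927 to 0.168 FPKM in siANKRD35 and 0.356 to 0.477 FPKM in sicontrol_for_siANKRD35 libraries, and the embryonic kidney line markers (1 of 4 at 1 FPKM, none listed at 0) at 2.49 to 2.78 and 4.48 to 5.22 FPKM in the same groups. The part of these in the results was not tested.

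The rest of the clock was described with a list of 37 further genes: core loop genes, the kinases, phosphatases and ubiquitin ligases that act on clock proteins, and output genes. For them, ± marks the SD over 3 libraries after an FPKM value and the SE after a log2 difference. Of these, 30 were tested in the RBCK1 table, 29 in the ANKRD35 table and 30 in the MITD1 table. After RBCK1 knockdown 10 of these genes rose, 11 fell and 9 missed the threshold, so that 21 of 30 were called beside 49.1% of all tested genes, and their median log2 difference was 0.02 beside 0.01 over all tested genes. After ANKRD35 knockdown 3 rose, 7 fell and 19 missed it (10 of 29 called beside 36.3%, median -0.06 beside 0.03), but 16 passed without siANKRD35 replicate 2 and 4 or 5 without siANKRD35 replicate 3 or any 1 control library. After MITD1 knockdown 7 rose, 17 fell and 6 missed it (24 of 30 called beside 65.6%, median -0.19 beside -0.03). All adjusted p-values given for them are from limma with Benjamini-Hochberg adjustment over all tested genes of the table. The list was chosen with earlier results of these data known, so its p-values are a description and nothing is read from its counts. In the RBCK1 table the calls of NFIL3, CRY2, NPAS2 and CRY1 were lost in 11, 7, 6 and 3 of 12 alternative fits, those without shRBCK1 replicate 2 among them for each. In the ANKRD35 table those of PPP1CA, GSK3B, TIMELESS, WEE1, TSC22D3 and ALAS1 were lost in 9, 8, 8, 6, 4 and 3 of 12, those without sicontrol_for_siANKRD35 replicate 3 among them for each. With the length correction and with quantile normalization the differences there were 0.14 and 0.11 for PPP1CA, 0.13 and 0.14 for ALAS1, -0.16 and -0.29 for GSK3B, -0.18 and -0.35 for TIMELESS, 0.51 and 0.35 for WEE1 and -0.61 and -0.54 for NFIL3.

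Among the core loop genes, BHLHE41 (DEC2), the paralog of BHLHE40, rose in shRBCK1 cells while BHLHE40 was lower. BHLHE41 averaged 20.5 ± 1.1 FPKM in shRBCK1 cells and 12.4 ± 0.34 FPKM in shcontrol cells (log2 difference 0.68 ± 0.05, SE; adjusted p = 2.95e-05, limma). It fell in the MITD1 table, to 21.3 ± 0.44 FPKM in siMITD1 cells against 28.3 ± 1.1 FPKM in sicontrol_for_siMITD1 cells (-0.40 ± 0.04, adjusted p = 2.97e-05, limma), where BHLHE40 was higher. The 2 DEC genes thus had opposite signs in both tables. In the ANKRD35 table BHLHE41 averaged 0.707 ± 0.051 FPKM in siANKRD35 cells and 1.78 ± 0.41 FPKM in sicontrol_for_siANKRD35 cells; it passed the expression filter only through the 3 control libraries, so it is described without a p-value, although it counts among the 7 genes that fell.

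CLOCK, the partner of ARNTL, rose in the RBCK1 table, at 6.16 ± 0.31 FPKM in shRBCK1 cells and 5.02 ± 0.10 FPKM in shcontrol cells (0.25 ± 0.05, adjusted p = 0.00421, limma). It did not pass the test in the ANKRD35 table (-0.17, adjusted p = 0.238, limma) or the MITD1 table (0.12, adjusted p = 0.0842, limma). NPAS2, which can replace CLOCK, fell in the RBCK1 table (-0.27, adjusted p = 0.0235, limma) and was under the expression filter elsewhere. ARNTL2, the paralog of ARNTL, was more abundant than ARNTL and fell in the RBCK1 and MITD1 tables by nearly the same amount. It averaged 16.5 ± 0.89 FPKM in shRBCK1 and 20.6 ± 1.1 FPKM in shcontrol cells, and 12.0 ± 0.39 FPKM in siMITD1 and 15.0 ± 0.54 FPKM in sicontrol_for_siMITD1 cells (-0.30 in both, adjusted p = 0.00278 and 0.000299, limma). It did not pass the test after ANKRD35 knockdown (0.07, adjusted p = 0.497, limma).

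The cryptochromes CRY1 and CRY2, the partners of PER proteins, had opposite signs in 2 tables. CRY1 fell and CRY2 rose in shRBCK1 cells (-0.17 and 0.19, adjusted p = 0.0170 and 0.0427, limma), and the same signs held, with a wider gap, in siMITD1 cells (-0.42 and 0.29, adjusted p = 0.00176 and 0.00287, limma). Neither passed the test in the ANKRD35 table (adjusted p = 0.505 and 0.632, limma). NFIL3, the repressor at D-boxes, rose in siMITD1 cells, at 37.9 ± 1.4 FPKM against 27.8 ± 0.62 FPKM in their controls (0.43 ± 0.04, adjusted p = 1.25e-05, limma). NFIL3 fell in siANKRD35 cells, at 34.1 ± 1.3 FPKM against 43.3 ± 0.08 FPKM (-0.34 ± 0.06, adjusted p = 0.00810, limma), and fell slightly in shRBCK1 cells (-0.11, adjusted p = 0.0494, limma). CIART, a repressor of the CLOCK and ARNTL pair, fell in siMITD1 cells (-0.34, adjusted p = 0.00353, limma). TIMELESS, whose protein acts mainly at replication forks in mammals, rose in shRBCK1 cells (0.29, adjusted p = 0.00221, limma) and fell in siANKRD35 cells (-0.22, adjusted p = 0.0444, limma). RORA, which competes with the REV-ERB receptors, was under the expression filter in each table.

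**Figure D4:**
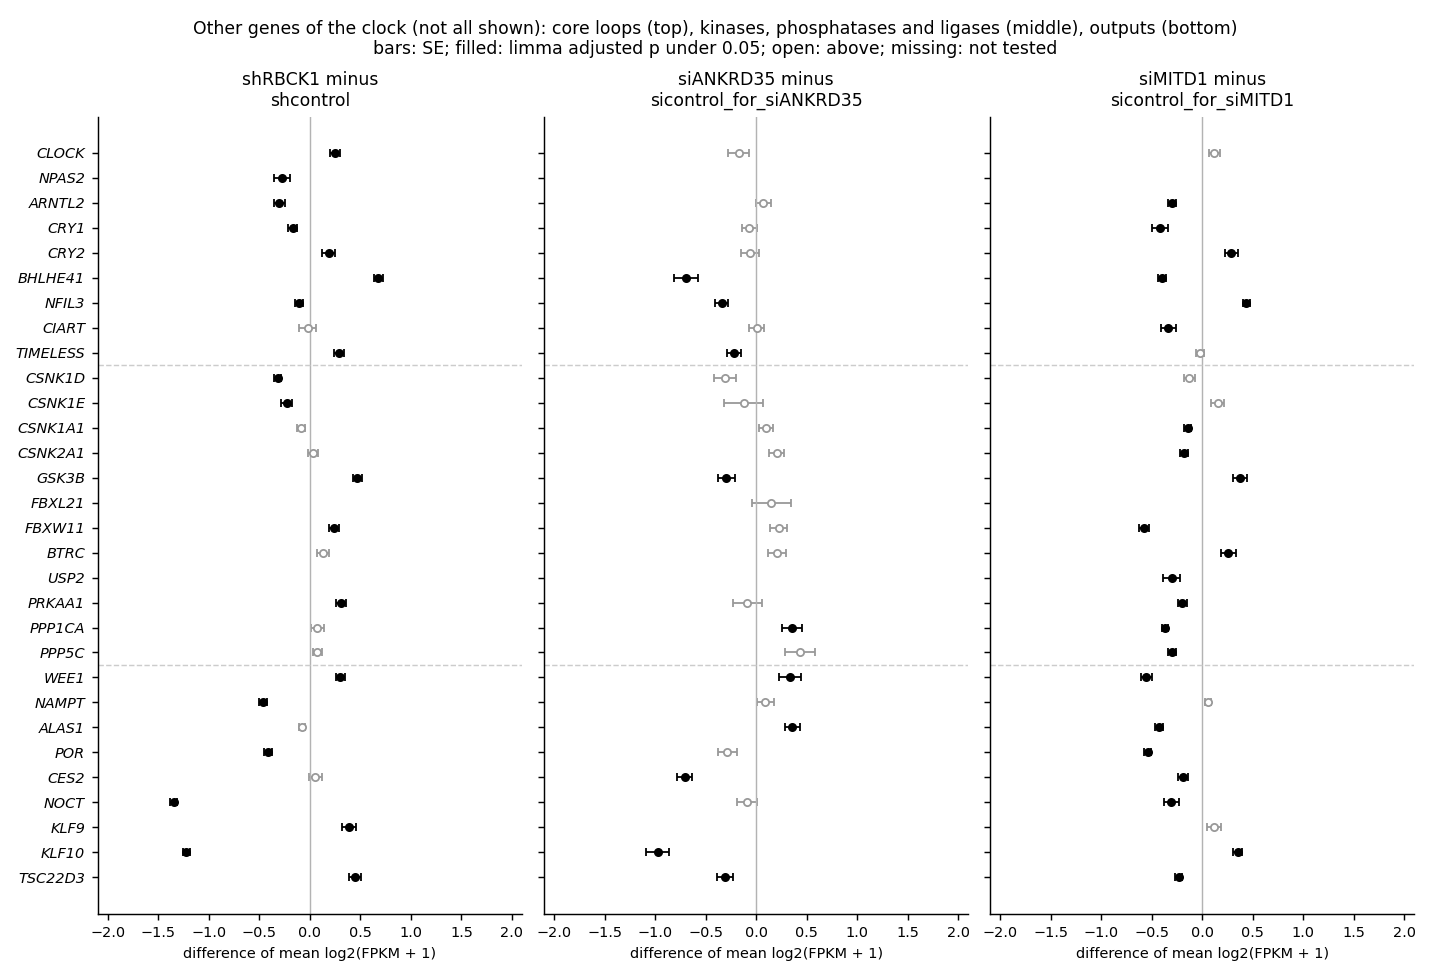
Difference of mean log2(FPKM + 1), knockdown minus control (x axes), of tested genes among the other clock genes, with SE bars; filled points have a limma adjusted p under 0.05, open points do not, and a gene with no point was not tested in that table. KLF10 lies at -1.22 in the left panel, at -0.98 in the middle one and at 0.35 in the right one.

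Of the tested genes that modify clock proteins, some passed the test in each table. GSK3B, a kinase that phosphorylates REV-ERB alpha and other clock proteins, rose in shRBCK1 cells (0.47, adjusted p = 0.000121, limma) and in siMITD1 cells (0.37, adjusted p = 0.00156, limma), and fell in siANKRD35 cells (-0.29, adjusted p = 0.0323, limma). CSNK1D and CSNK1E, the casein kinases that phosphorylate PER proteins, fell in shRBCK1 cells (-0.32 and -0.23, adjusted p = 0.000415 and 0.00878, limma), and PRKAA1 and FBXW11 rose there (0.31 and 0.24, adjusted p = 0.00200 and 0.00707, limma). Modifiers that passed the test numbered 5 of 11 tested in shRBCK1 cells, beside 49.1% of all tested genes. They numbered 2 of 12 tested in siANKRD35 cells, beside 36.3%. In siMITD1 cells 10 of 12 tested modifiers passed the test, beside 65.6% of all tested genes. FBXW11, a subunit of the ubiquitin ligase that recognises phosphorylated PER, fell most among them (-0.57, adjusted p = 1.18e-05, limma), while its paralog BTRC rose (0.26, adjusted p = 0.0134, limma). PPP1CA and PPP5C, phosphatase subunits, fell there (-0.37 and -0.30, adjusted p = 1.26e-05 and 0.000217, limma), as did USP2, PRKAA1, CSNK2A1 and CSNK1A1 (-0.30 to -0.14, limma adjusted p at most 0.0126). In siANKRD35 cells PPP1CA rose (0.35, adjusted p = 0.0309, limma).

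Among the outputs, KLF10, a zinc finger factor controlled by the clock, fell in shRBCK1 and siANKRD35 cells and rose in siMITD1 cells, the order of signs seen for NR1D1. KLF10 averaged 22.1 ± 0.78 FPKM in shRBCK1 and 53.0 ± 0.40 FPKM in shcontrol cells, 36.5 ± 5.8 FPKM in siANKRD35 and 72.2 ± 0.72 FPKM in sicontrol_for_siANKRD35 cells, and 25.5 ± 1.1 FPKM in siMITD1 and 19.8 ± 0.79 FPKM in sicontrol_for_siMITD1 cells. The log2 differences were -1.22, -0.98 and 0.35 (adjusted p = 2.14e-07, 0.00173 and 0.000148, limma). NOCT, a rhythmic phosphatase, fell to 7.09 ± 0.07 FPKM in shRBCK1 cells, against 19.6 ± 0.32 FPKM in shcontrol cells (-1.35, adjusted p = 1.09e-07, limma), and fell less in siMITD1 cells (-0.31, adjusted p = 0.00674, limma).

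Of POR, ALAS1 and CES2, known targets of PAR bZIP factors, none was called in the direction of TEF in shRBCK1 cells. POR, the electron donor of cytochromes P450, fell there (-0.42, adjusted p = 0.000135, limma), and ALAS1, the first enzyme of haem synthesis, and CES2, a carboxylesterase, did not pass the test (-0.08 and 0.06, adjusted p = 0.0519 and 0.476, limma). NAMPT, the enzyme that limits NAD salvage, also fell (-0.46, adjusted p = 8.24e-05, limma). WEE1, a cell cycle kinase with E-boxes, and the glucocorticoid-responsive genes TSC22D3 and KLF9 rose (0.30, 0.45 and 0.39, adjusted p = 0.00114, 0.000529 and 0.00261, limma). In siMITD1 cells, where TEF hardly differed, POR, ALAS1 and CES2 fell (-0.54, -0.43 and -0.19, adjusted p = 2.69e-06, 1.36e-05 and 0.00837, limma), as did WEE1 and TSC22D3 (-0.55 and -0.23, adjusted p = 3.25e-05 and 0.000636, limma). In siANKRD35 cells CES2 and TSC22D3 fell (-0.71 and -0.31, adjusted p = 0.00137 and 0.0187, limma), and ALAS1 and WEE1 rose (0.36 and 0.34, adjusted p = 0.00981 and 0.0464, limma).

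The order of levels within the 10 genes varied below BHLHE40. FPKM is per length, so levels are set between genes here as a description, which rests on the gene lengths behind the deposited values. HLF and DBP were the lowest in every group. TEF was above PER3 in shRBCK1 cells, at 8.09 ± 0.19 and 7.01 ± 0.23 FPKM, and below it in shcontrol cells, at 3.28 ± 0.15 and 3.97 ± 0.02 FPKM. NR1D1 and PER1 were neighbours that did not differ beyond their spread in sicontrol_for_siANKRD35 cells, at 3.34 ± 0.14 and 3.33 ± 0.32 FPKM, and likewise PER1 and ARNTL in shRBCK1 cells, at 1.86 ± 0.06 and 1.79 ± 0.05 FPKM. The ratio of TEF to NR1D1 was 0.887 ± 0.066 in shRBCK1 and 0.148 ± 0.005 in shcontrol cells, 0.428 ± 0.015 in siANKRD35 and 0.331 ± 0.047 in sicontrol_for_siANKRD35 cells, and 0.937 ± 0.13 in siMITD1 and 1.17 ± 0.14 in sicontrol_for_siMITD1 cells. Between tables, the control level of NR1D1 was 22.2 FPKM in shcontrol cells and 3.34 and 5.22 FPKM in sicontrol_for_siANKRD35 and sicontrol_for_siMITD1 cells, and that of PER3 was 3.97, 0.326 and 2.47 FPKM.

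The genes whose pattern was nearest to that of NR1D1 and TEF were found by the root mean square distance of log2(FPKM + 1), centred on each table's control mean, over the 18 libraries. The 7539 genes compared were tested in all 3 tables, averaged at least 5 FPKM in a group and had an official-style symbol. Nearest to NR1D1 were XBP1, NUAK2, IRAK2, APOL6 and RASSF1, at distances of 0.11 to 0.15, where the median gene lay at 0.59. XBP1, a transcription factor of the unfolded protein response, had differences of -0.99, -0.44 and 0.14 in the RBCK1, ANKRD35 and MITD1 tables. Nearest to TEF were DANCR, OLFML2B, RNF128, PCYOX1 and SLC26A2, at distances of 0.15 to 0.19, where the median gene lay at 0.51. DANCR, a long non-coding RNA, had differences of 1.19, 0.15 and 0.13. The distance is a description of likeness over these libraries, which share controls and depth within a table.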

How the data were processed

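Sequenced RNA of 786-O cells, 18 libraries, fell into 6 groups of 3 by the sample titles. Libraries were made from total RNA with a kit that keeps strand, per the labels' protocols. The values used are the FPKM that the authors deposited, as they stand, with the gene length that the authors deposited beside them as another column in 2 of the tables. For aligner, counting tool and counting strand, nothing was given in the sources used here. The build mm10, a mouse build, is named per the submitters' processing notes, but 58735 of 58735 identifiers of the RBCK1 table have the start and end of human GENCODE 29 on GRCh38. The MITD1 table lists symbols only, so positions and lengths come from the RBCK1 table by symbol. Of the ANKRD35 table, 6 value columns name no sample of the series and were not used; its knockdown columns say ShRNA where the titles say si and were matched by target and number.

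Genes reaching 1 FPKM in 3 or more of a table's 6 libraries were tested on log2(FPKM + 1), a scale that understates the change of low genes, with limma 3.58.1 in R 4.3.3 (2-sided, trend, Benjamini-Hochberg over all tested genes, threshold 0.05). The fit was also run on simulated data with few changed genes and no length trend. These settings differ from the deposited data, so nothing is read from that run. FPKM times length was a whole multiple of 1 step per library, which gave reads: within 0.01 reads, 100% of values came out whole in the RBCK1 and ANKRD35 tables and 91.9 to 92.1% in the MITD1 table. The library size implied by that step was above the recovered reads in shRBCK1 libraries (19173760 against 18648246 in replicate 1). It was below them in shcontrol libraries (17052778 against 17418255 in replicate 1). In the ANKRD35 table it was below them in knockdown and above them in control libraries. The part of this in the calls was not tested. Voom on the recovered reads called 6864, 4471 and 6403 genes in the RBCK1, ANKRD35 and MITD1 tables, against 6000, 4312 and 6835 on FPKM. In the MITD1 table voom tested 9534 genes, those with reads recovered in every library, against 10415 on FPKM. The 2 counts of that table are therefore not over the same genes. Other alternatives were a pseudocount of 0.1, no filter, quantile normalization, a length correction, a replicate block and each library left out.

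The 10 genes and the lists of other clock genes and cell markers were chosen with earlier results of these data known. The text names the 10 genes, each tested gene of the other clock lists with an adjusted p under 0.05, a fixed set of core clock genes in each table, the targeted genes and the nearest genes of NR1D1 and TEF. THRA, Z98884.1 and CDH6 were named after their values were seen. Some genes of the other clock lists count in the totals but are not reported here by name.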

Additional observations from a re-analysis of the deposited data

How the results depend on the processing

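The direction of the 10 genes' calls held in each of 12 alternative fits per table, and in the RBCK1 table all 5 calls were kept in each. The ANKRD35 comparison was the unstable one. Leaving out 1 library at a time gave 2267 to 6536 called genes there (main 4312; 6536 without siANKRD35 replicate 2), 1 to 3 of the 10 genes (main 3; 1 without sicontrol_for_siANKRD35 replicate 1) and 4 to 16 of the other clock genes (main 10), and with no filter on low values 6 other clock genes were called. BHLHE40 was called there under quantile normalization, with a difference of -0.31, and ARNTL was called in the MITD1 table without sicontrol_for_siMITD1 replicate 3. The replicate numbers were not stated to pair the libraries. Deviations of same-numbered libraries correlated at -0.09 to 0.18. Libraries of different numbers were not compared, so these values have no reference and do not decide whether the libraries were paired. With the replicate block 5347, 4139 and 6859 genes were called in the RBCK1, ANKRD35 and MITD1 tables, 5, 3 and 4 of the 10 genes, and 18, 9 and 25 other clock genes. Over all alternatives, single other clock genes kept their side of the threshold in 963 cases, lost it in 65 and gained it in 35. Depth limits HLF, with 0 to 42 reads per library, and DBP, with 1 to 22, and the depth of the MITD1 libraries is known only in part.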
